A study of Mus musculus with 21 samples.

Results

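The homeobox, SOX and forkhead transcription factors were taken as the genes of the deposited tables whose symbols belong to the FOX, SOX, IRX, MEIS, PBX, LHX, POU, ONECUT, ZFHX and DLX families or to the family of SIX3, leaving out *Foxo1*, *Foxo3* and *Foxo4*. This name rule, which uses no measured value, gave 114 genes of the 35266 in the tables. AGRP and POMC neurons of the arcuate nucleus (ARC) were profiled by RNA-Seq, with 1 male mouse per library. AGRP neurons came from the NPY-hrGFP strain (fed, n = 5; food deprived, FD, n = 6) and POMC neurons from the Pomc-GFP strain (n = 5 and n = 5), both on a C57BL/6J background. FD mice had water but no food for 24 hours, fed mice had food ad libitum, and all were alone in a cage and 46 to 56 days old. The strain therefore goes with the neuron type, and the cells are those that carried the fluorescent reporter and were picked by hand, 44 to 214 per library.

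Factors of these families bind DNA through a homeodomain, an HMG box or a forkhead domain, and many of them set the identity of a neuron during development and are kept on in the adult. In the hypothalamus, SIX3, SIX6, LHX2 and the SOXB1 proteins SOX1, SOX2 and SOX3 are known from the patterning of the ventral forebrain. PBX and MEIS proteins bind DNA together, and the ZFHX proteins carry both zinc fingers and several homeodomains. AGRP neurons promote feeding and POMC neurons restrain it, and both respond to an energy deficit.

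The sequences before the start sites of 4 members are shown because *Zfhx2* and *Sox11* were higher in AGRP neurons after deprivation, whereas *Sox2* and *Sox1*, SOXB1 genes, were lower in AGRP than in POMC neurons. Each is the 250 bases before the RefSeq start, on the gene's own strand, in GRCm38.p6, from chr14:55092049-55092298 (minus strand) for *Zfhx2*, chr12:27342719-27342968 (minus) for *Sox11*, chr3:34649745-34649994 (plus) for *Sox2* and chr8:12395269-12395518 (plus) for *Sox1*. RefSeq starts can differ from the bounds of the genes as counted. The *Zfhx2* window lies inside the counted gene (55060262 to 55092324), and the *Sox1* window crosses the counted start at 12395295. The *Sox11* and *Sox2* windows lie outside the counted genes. Capitals mark a GC box (GGGCGG) or a CCAAT box (CCAAT), on either strand.
Zfhx2: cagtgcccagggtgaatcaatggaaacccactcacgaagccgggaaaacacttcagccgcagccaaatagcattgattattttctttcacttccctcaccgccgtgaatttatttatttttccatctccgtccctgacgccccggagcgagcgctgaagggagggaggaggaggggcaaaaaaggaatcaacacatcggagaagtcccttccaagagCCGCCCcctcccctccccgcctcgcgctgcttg
Sox11: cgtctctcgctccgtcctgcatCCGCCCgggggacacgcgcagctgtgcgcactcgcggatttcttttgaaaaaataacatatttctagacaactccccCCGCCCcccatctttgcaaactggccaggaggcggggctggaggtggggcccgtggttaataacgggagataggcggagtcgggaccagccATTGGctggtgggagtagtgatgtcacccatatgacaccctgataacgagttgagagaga
Sox2: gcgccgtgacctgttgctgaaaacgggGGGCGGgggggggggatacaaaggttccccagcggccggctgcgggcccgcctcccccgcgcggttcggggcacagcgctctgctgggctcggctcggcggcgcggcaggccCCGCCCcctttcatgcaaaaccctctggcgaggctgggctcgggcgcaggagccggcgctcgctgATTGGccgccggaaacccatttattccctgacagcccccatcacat
Sox1: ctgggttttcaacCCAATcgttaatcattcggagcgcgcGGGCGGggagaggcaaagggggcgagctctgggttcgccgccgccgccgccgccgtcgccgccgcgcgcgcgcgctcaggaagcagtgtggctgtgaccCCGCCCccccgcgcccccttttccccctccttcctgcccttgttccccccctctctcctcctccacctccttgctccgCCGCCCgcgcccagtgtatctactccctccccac
The *Zfhx2* sequence held 1 GC box, the *Sox11* sequence 2 GC boxes and 1 CCAAT box, the *Sox2* sequence 2 and 1, and the *Sox1* sequence 3 and 1. RefSeq gave 94 start sites for 75 of the 114 members. A GC box was present in 58.5% of these and in 32.7% of all 32851 promoters, and a CCAAT box in 42.6% and 33.8%. The median GC content was 62% before the members' starts and 52.4% over all promoters. The core letters that the families themselves bind were in few of them. The SOX core (AACAAT) was in 5.32% of the members' promoters and 9.42% of all, the forkhead core (TGTTTAC) in 2.13% and 3.17%, the homeobox core (TAATTA) in 2.13% and 4.84%, and the POU octamer (ATGCAAAT) in 1.06% and 1.6%. None of these 4 cores lay in the 4 sequences shown, which says only that these letters are not in these windows.

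Libraries held 9822298 to 37663979 gene counts, and 3 counts, the floor used here, were 0.0797 to 0.305 CPM (counts scaled to a common library size). Sorted neurons matched their labels, with *Agrp* at 2053 to 19928 TPM in AGRP and 5.27 to 69.3 TPM in POMC libraries, and *Pomc* at 7.35 to 69.7 and 7162 to 23063 TPM. The summed level of 24 markers of other cell types lay between 30.9 and 63.4 TPM in every library. Its group means of 53.4 TPM (fed AGRP), 44.7 (FD AGRP), 42.9 (fed POMC) and 50.1 (FD POMC) did not differ beyond the spread between mice (two-sided exact permutation tests, p adjusted over the 4 pairs 0.216 to 0.455). Most of the sum was *Mbp*, at 33.9, 26.6, 23.3 and 29.8 TPM in the same order, so these tests bear mainly on that gene. The 4 oligodendrocyte markers summed to 36.9 TPM in fed AGRP and 25.7 TPM in fed POMC libraries (same test, adjusted p = 0.0635). In FD mice they summed to 30.4 TPM in AGRP and 38.4 TPM in POMC libraries (same test, adjusted p = 0.19). The 4 microglia markers summed to 0 to 11.5 TPM in fed AGRP, 0 to 1.32 in FD AGRP, 0.07 to 10.7 in fed POMC and 0.481 to 7.68 in FD POMC libraries, nearly all of it *Aif1*, while *C1qa* was at 0 in all 21 libraries. The volume of spike-in RNA divides the libraries into 3 sets, 1 µl (8 libraries), 10 µl (6 libraries) and a volume set by the cell number (7 libraries). In the AGRP groups every set holds fed and FD mice, but the POMC libraries of the 10 µl set are all FD and those of the cell-number set all fed, so that set and condition cannot be told apart there outside the 1 µl set. Tests were edgeR quasi-likelihood tests in 1 model of all 4 groups, and q is the two-sided p adjusted by the Benjamini-Hochberg method over 16513 genes above 1 CPM in at least 3 libraries. Fewer cells that express a gene and less RNA per cell cannot be told apart in these pooled neurons.

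The 10 µl set stood apart in *Meis2*, which was chosen after its values were seen. *Meis2* (a TALE homeobox gene of the striatum and other brain regions) had 51, 96, 140, 42, 31 and 33 counts in the 6 libraries of this set and 0 counts in each of the other 15 libraries. The counts crossed neuron type and feeding state, since the set holds 2 fed AGRP, 2 FD AGRP and 2 FD POMC libraries. Over the whole table, a total of 21 genes were counted in every library of the 10 µl set and in no other library, among them the cortical genes *Neurod6* (376 counts) and *Neurod2* (123 counts) and the *Dlx6* antisense transcript *Dlx6os1* (49 counts). No gene was confined in this way to the 1 µl or the cell-number set. *Meis2* reached 2.44 to 6.46 CPM in these 6 libraries. For this reason the number of tested members with q under 0.05 in each comparison is also given without the 6 libraries, an alternative chosen after seeing the data.

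**Figure D1:**
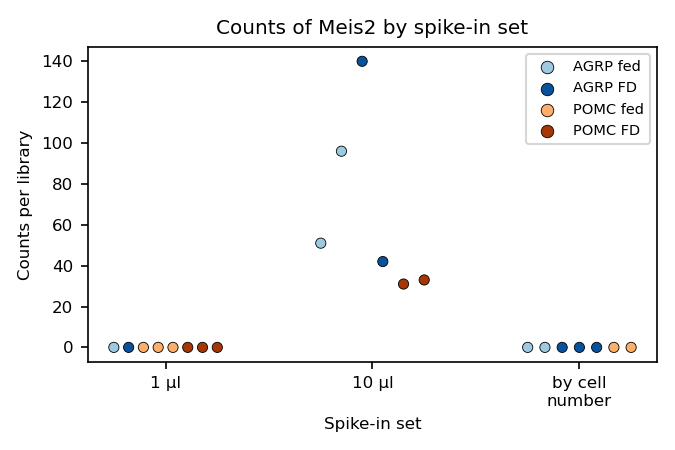
Counts per library (vertical axis) of *Meis2* in the 3 spike-in sets (horizontal axis), 1 point per library, coloured by group. All 6 libraries of the 10 µl set have counts, between 31 and 140, and the other 15 libraries have 0.

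Both neuron types expressed many of the same members, as they did of all genes. Of the 114 members, 87 had a count in at least 1 library, 29 had counts in all 21 and 27 had none, including all 6 *Irx* genes. A mean over 1 TPM in at least 1 group was reached by 49 members (43% of 114, beside 55.4% of all genes in the table). Of these 49 members, 29 passed this level in all 4 groups, beside 13643 of 19548 over all genes. All 4 *Pbx*, 3 *Zfhx* and 3 *Onecut* genes were among the 49 members, with 12 of 19 *Sox*, 16 of 41 *Fox* and 6 of 15 *Pou* genes. The others were 2 of 3 *Meis*, 2 of 6 genes of the *Six3* family, 1 of 8 *Lhx* and none of the *Irx* or *Dlx* genes. *Dlx1*, the highest of its family, averaged 0.356 TPM over the 21 libraries, while its antisense transcript *Dlx1as* had group means of 1.47 to 7.73 TPM. Without strand, reads on any bases that the pair shares cannot be assigned to 1 of them. As means over the 21 libraries, the levels were led in their families by *Zfhx3* (89.6 TPM), *Foxj3* (76.1 TPM), *Six3* (60.9 TPM) and *Meis3* (54.4 TPM), and *Foxk2* (59.9 TPM) and *Six6* (49.3 TPM) stood next in theirs. Lower levels were found for *Pou2f2* (37.8 TPM), *Sox1* (35.9 TPM), *Lhx2* (11.3 TPM) and *Onecut2* (2.76 TPM). The order changed between groups, since *Six3* (115 ± 41.6 TPM) stood above *Foxj3* (77.3 ± 13.7 TPM) in fed POMC neurons and below it (27.7 ± 11.6 against 81.3 ± 21.6 TPM) in fed AGRP neurons (SD, n = 5 each).

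**Figure D2:**
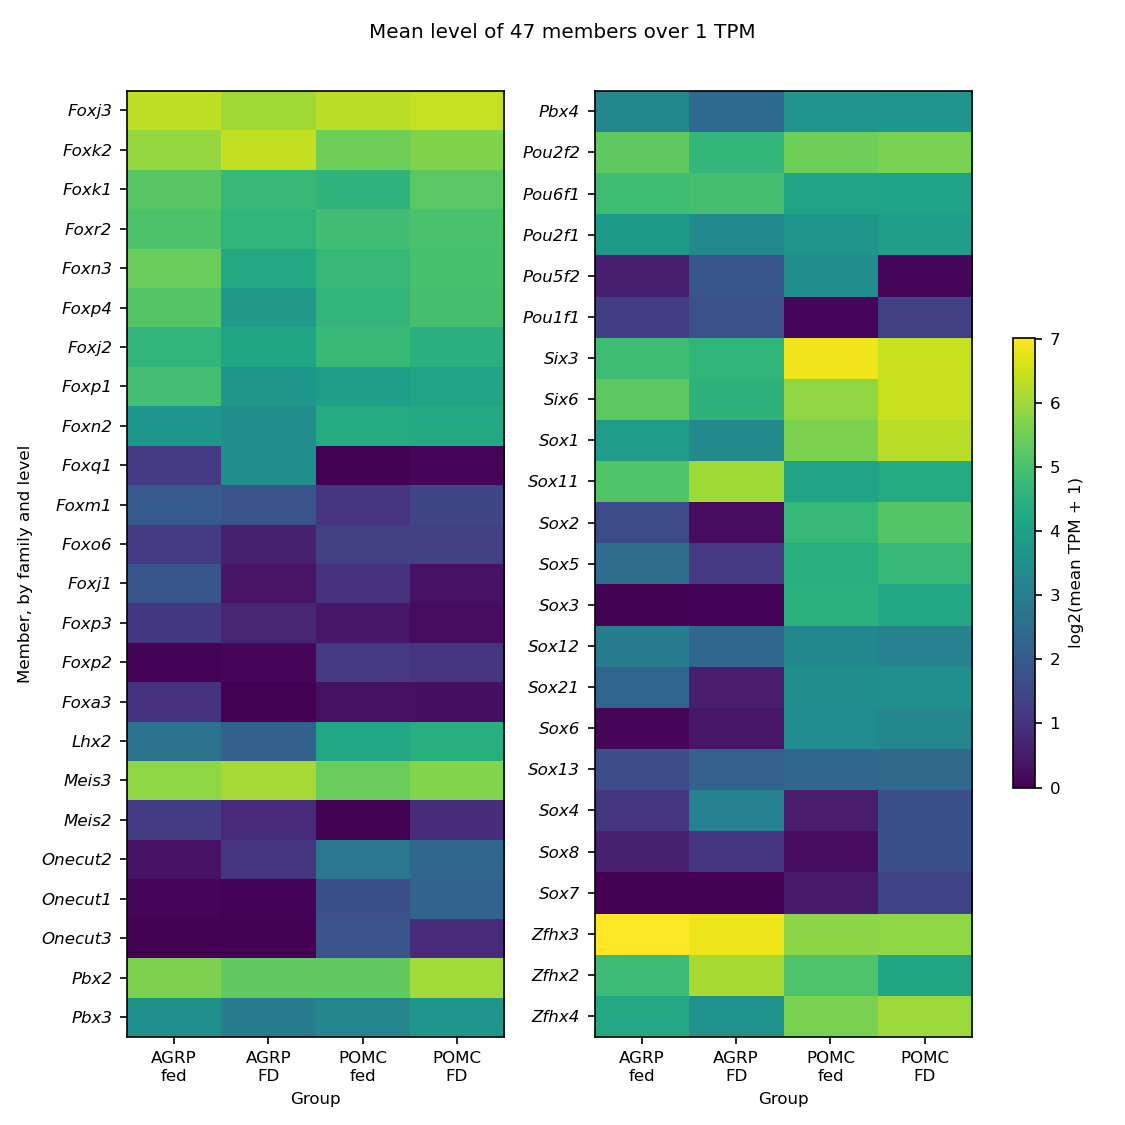
Mean level of 47 of the members over 1 TPM in at least 1 group, as log2(mean TPM + 1) (colour), with members grouped by family in rows and the 4 groups in columns. *Zfhx3* is bright in all 4 columns, and *Sox1*, *Sox2*, *Sox3*, *Sox5* and *Sox6* are higher in both POMC columns than in the AGRP columns.

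A total of 51 members passed the filter on low counts and were tested, and the other 63 were too low for a test. Between FD and fed AGRP neurons 8 of the 51 had q under 0.05, beside 10.3% of all genes tested, with 5 higher and 3 lower in FD (5.87% and 4.43% of all genes). Under the criteria of the study, which add a fold change over 1 on the log2 scale and a group mean over 20 CPM, 5 members passed (4.46% of all genes). That mean may be in any of the 4 groups, and *Sox2* and *Sox5* reached it in POMC neurons only. The higher ones of the 8 were *Zfhx2*, *Sox11*, *Foxk2*, *Sox4* and *Foxq1*, and the lower ones *Sox2*, *Foxp1* and *Sox5*. The 8 are 15.7% of the members tested, and nothing particular to these families is read from that share. The groups did not overlap for 4 of the 51 members tested, beside 7.65% of all genes. The median log2 fold change was −0.20 over the tested members and −0.02 over all tested genes. Without the 10 µl libraries 1 member (*Zfhx2*) kept q under 0.05, and the calls over all genes went from 1700 to 642. Within each spike-in set all 8 members differed in the same direction as in the whole, except *Sox2* in the 1 µl set, which has 1 library of each group.

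*Zfhx2* (ENSMUSG00000040721, chromosome 14, 55060262 to 55092324, mm10), a zinc finger and homeobox gene expressed in postmitotic neurons, went up with deprivation in AGRP and down in POMC neurons. In fed AGRP neurons its normalized CPM (CPM on the TMM-scaled library size) were 79.3, 63.5, 70.1, 71 and 114, and in FD AGRP neurons they ran from 122 to 354 with a median of 262. Every FD library was above every fed library. The log2 fold change was 1.61 (standard error 0.24, q = 2.87e-05), and q stayed under 0.05 in all 20 alternative fits run other than scaling by spike-in RNA per cell. In fed POMC neurons the values were 112, 158, 107, 80.1 and 101 normalized CPM, and in FD POMC neurons 64, 49.8, 43.8, 45 and 52. These groups did not overlap either, and FD was lower (log2 fold change −1.13, standard error 0.24, q = 0.0233). *Zfhx2* was the only member of the 51 with q under 0.05 in POMC neurons, where 0.375% of all genes tested passed (0.182% higher and 0.194% lower), and it also met the criteria of the study (0.266%). At an unadjusted p under 0.05 there were 9 members (12.2% of all genes), and the groups did not overlap for 2 members (2.35%). That call was lost without POMC fed replicate 2 (q = 0.0918), without POMC FD replicates 2 (q = 0.0572), 3 (q = 0.0676) or 4 (q = 0.0649), with the spike-in set as a block (q = 0.0827), with limma-voom (q = 0.0709) and without the 10 µl libraries (q = 0.151). Within the 1 µl set, *Zfhx2* averaged 52.5 normalized CPM in 3 FD and 96.1 in 3 fed POMC libraries. The response to deprivation differed between the neuron types, by a test of the interaction, for 5 of the 51 members (6.71% of all genes), 3 with a positive and 2 with a negative difference (4.08% and 2.63%), and 3 met the criteria of the study (4.55%). *Zfhx2*, *Sox11*, *Sox2* and *Pou5f2* were among them. For *Zfhx2* the difference was 2.74 on the log2 scale (standard error 0.34, q = 3.64e-06), and it kept q under 0.05 without the 10 µl libraries (2.68, q = 0.00101), where it was the 1 member left. AGRP neurons had more *Zfhx2* than POMC neurons in FD mice (log2 fold change 2.26, q = 3.63e-08), while in fed mice the log2 fold change was −0.49 (standard error 0.24, q = 0.268). In GENCODE M21, an annotation other than that of the counts, 24.3% of the exon bases of *Zfhx2* lie opposite its antisense transcript *Zfhx2os*. *Zfhx2os* is not in the deposited counts by that name. A share of 16.2% lies opposite *Gm20687*, which averaged 0.482 to 2.87 normalized CPM by group. Without strand, reads on bases that *Zfhx2* shares with these transcripts cannot be assigned to 1 of them.

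*Sox11* and *Sox4*, SOXC genes known from the differentiation of young neurons, both rose in AGRP neurons. *Sox11* (ENSMUSG00000063632, chromosome 12, 27334264 to 27342574) had 116, 74, 58.2, 50.7 and 95 normalized CPM in fed AGRP and 146 to 222 (median 179) in FD AGRP libraries, without overlap (log2 fold change 1.20, standard error 0.23, q = 0.000656). *Sox4* (ENSMUSG00000076431, chromosome 13, 28948919 to 28953713) was lower in level, at 3.75, 1.05, 0.487, 0.569 and 2.09 in fed and 4.47 to 23.8 (median 12.8) normalized CPM in FD AGRP libraries (log2 fold change 2.99, standard error 0.77, q = 0.0106). Again the groups did not overlap. Without the 10 µl libraries q was 0.0665 for *Sox11* and 0.201 for *Sox4*, at log2 fold changes of 1.04 and 2.48, and without AGRP fed replicate 1 that of *Sox4* was 3.59. In POMC neurons *Sox11* had 26.2, 28.7, 56.3, 59.6 and 39.7 normalized CPM in fed and 47.1, 43.6, 49.9, 48.9 and 45.4 in FD mice, so the values overlapped. Its response differed between the neuron types by 1.05 on the log2 scale (q = 0.0486), a call that was lost in 19 of 29 other fits. For *Sox4* the POMC values were 2.04, 0.666, 0.314, 0.53 and 0.359 normalized CPM in fed and 0.798, 1.38, 3.59, 5.1 and 5.36 in FD mice. The FD values were mostly higher there too, with overlap, and *Sox4* was not among the members with an interaction. In the M21 annotation 54.6% of the exon bases of *Sox4* overlap *Gm26735* on the opposite strand. *Gm26735* had 2, 6, 9 and 3 counts in the fed AGRP, FD AGRP, fed POMC and FD POMC groups.

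*Foxq1* and *Foxk2* were the forkhead genes that rose. *Foxq1* (ENSMUSG00000038415, chromosome 13, 31558324 to 31560976) had 1.37, 1.16, 1.4, 0 and 1.02 normalized CPM in fed AGRP and 2.13 to 18.7 (median 7.92) in FD AGRP libraries (log2 fold change 3.17, standard error 0.98, q = 0.0378). All 6 FD libraries lay above the fed ones, but q rose above 0.05 in 9 of the 11 fits with 1 library left out (up to 0.109), with the count filter removed (0.0622), with the replicate number as a block (0.13) and without the 10 µl libraries (0.33). In POMC neurons *Foxq1* had 0 counts in all 5 fed and 4 counts in all 5 FD libraries. In the M21 annotation 66.1% of the exon bases of *Foxq1* are shared with *A530084C06Rik* on the opposite strand. The start of *Foxq1* differs there from the gene as counted, so this share need not hold for the counts. *A530084C06Rik* had 92 counts in fed AGRP, 366 in FD AGRP and 0 in POMC libraries, and these counts cannot be assigned to 1 strand. *Foxk2*, a ubiquitous forkhead gene whose log2 fold change of under 1 puts it outside the naming rule, had 84.6, 90, 72.8, 77.8 and 98.8 normalized CPM in fed and 98.7 to 181 (median 147) in FD AGRP libraries (log2 fold change 0.74, standard error 0.19, q = 0.00952). The lowest FD value fell just under the highest fed value, and without the 10 µl libraries q was 0.158.

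*Foxp1*, *Sox5* and *Sox2* were lower in FD AGRP neurons, each with overlap between the groups. *Foxp1* (ENSMUSG00000030067), a forkhead gene of many neuron types, had 47.3, 116, 42.8, 92.6 and 66.3 normalized CPM in fed and 22.5 to 47.8 (median 38.1) in FD AGRP libraries (log2 fold change −1.03, standard error 0.29, q = 0.0209). Without AGRP fed replicate 2 the log2 fold change was −0.80 (q = 0.104). The call was also lost without AGRP fed replicate 4 (q = 0.0662), AGRP FD replicate 2 (q = 0.0509) or 5 (q = 0.0529) and the 10 µl libraries (q = 0.116). *Sox5* (ENSMUSG00000041540), a SOXD gene, had 5.12, 21.6, 13.8, 2.23 and 8.08 normalized CPM in fed and 0.92 to 7.59 (median 1.64) in FD AGRP libraries (log2 fold change −1.76, standard error 0.52, q = 0.0261). The values over 10 are the fed libraries of the 10 µl set, and without that set the log2 fold change was −1.29 (q = 0.258). The call was also lost with limma-voom (q = 0.169), with the compared groups alone (q = 0.122), without AGRP fed replicate 2 (q = 0.137) or 3 (q = 0.0676) and without AGRP FD replicate 2, 3, 4 or 5 (q = 0.0579 to 0.0621). *Sox2* (ENSMUSG00000074637), a SOXB1 gene of neural progenitors and astrocytes, had 0.0457, 2.97, 2.74, 0.0474 and 1.23 normalized CPM in fed and 0 to 0.447 (median 0.0896) in FD AGRP libraries (log2 fold change −3.44, standard error 0.82, q = 0.00558). Only fed replicates 2, 3 and 5 held it above the FD range, and fed replicates 1 and 4 were as low as the FD libraries. With limma-voom q was 0.254, with the compared groups alone it was 0.143, without AGRP FD replicate 6 the log2 fold change was −4.15, and without the 10 µl libraries it was 0.147 at a log2 fold change of −2.84. Summed astrocyte markers in AGRP libraries were 1.67 to 7.51 TPM in fed and 0.468 to 14.1 TPM in FD mice, *Sox9* was 0 to 0.529 and 0 to 0.75 TPM, and *Pomc* was 16.1 to 69.7 and 7.35 to 60.9 TPM. The part of these cells in the *Sox2* difference was not tested.

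**Figure D3:**
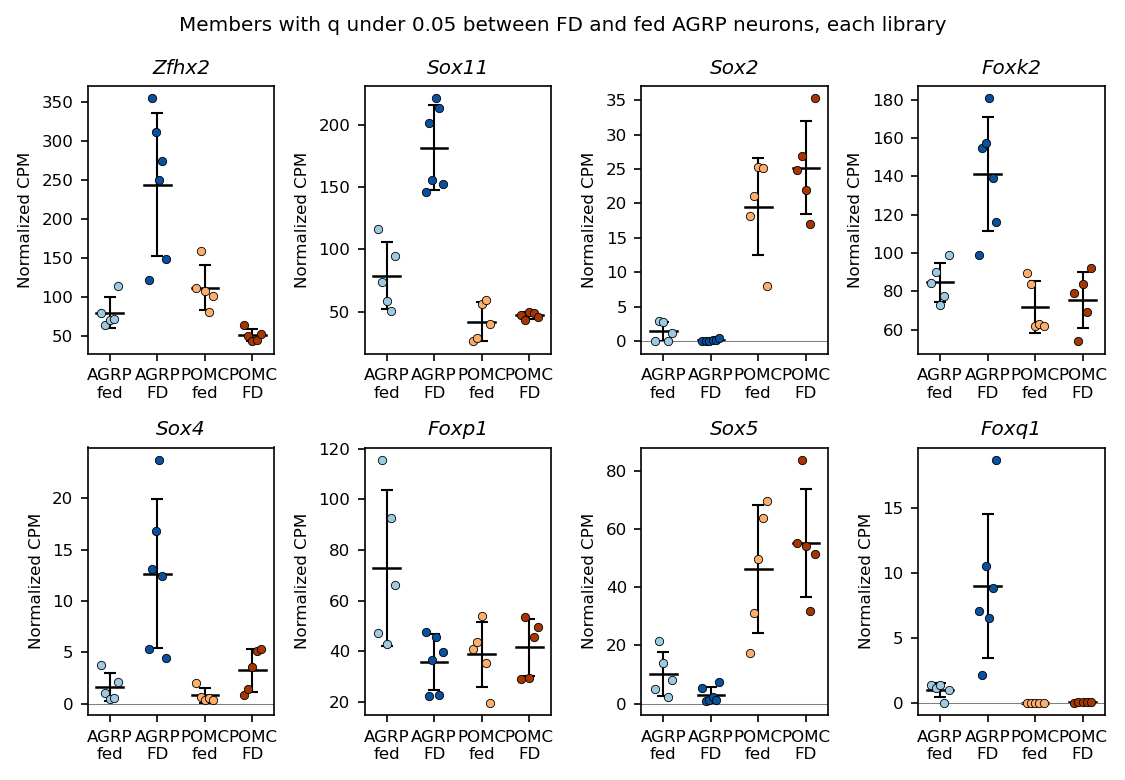
Normalized CPM (vertical axes, scaled per gene) of the 8 members that passed in FD against fed AGRP neurons, 1 point per library, with the group mean (line) and SD (bar) for fed and FD AGRP and POMC neurons. *Zfhx2*, *Sox11*, *Sox4* and *Foxq1* have FD AGRP libraries that all lie above the fed ones, and *Zfhx2* falls in FD POMC libraries.

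The neuron types differed in more of these factors than the feeding states did. In fed mice 16 of the 51 members tested had q under 0.05 between AGRP and POMC neurons (7.57% of all genes), 4 higher and 12 lower in AGRP (3.33% and 4.24%). In FD mice 22 of 51 did (18.6% of all genes), 6 higher and 16 lower (9.28% and 9.27%). Under the criteria of the study 8 and 12 members passed, beside 4.02% and 8.11% of all genes. Without the 10 µl libraries the counts were 15 and 17, and the calls over all genes went from 1250 to 782 and from 3064 to 2075. The groups did not overlap for 11 members in fed and 18 in FD mice, beside 8.93% and 11.4% of all genes. The median log2 fold change of the tested members was −0.33 in fed and −0.60 in FD mice, whereas over all genes it was −0.01 and −0.00. Fed and FD comparisons use different mice. Scaling by spike-in RNA per cell moved the median of all genes by 1.10 in the FD comparison, and the split was then 5 higher and 5 lower. Of the calls above, this scaling kept 8 of 16 in fed and 9 of 22 in FD mice. Those lost included *Zfhx4*, *Six3* and *Sox1* in both feeding states and *Six6* in FD mice.

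SOX genes were the largest group among them by number, with 6 of 12 tested members in fed (7.57% of all genes) and 8 of 12 in FD mice (18.6%). The share was at least as high in 3 smaller families. In fed and FD mice it was 2 of 3 and 3 of 3 *Zfhx* genes, and 3 of 3 and 2 of 3 *Onecut* genes. In the *Six3* family it was 2 of 3 tested genes in both. The SOXB1 genes *Sox1*, *Sox2* and *Sox3*, which share overlapping roles in neural cells, were all lower in AGRP than in POMC neurons in both feeding states. *Sox3* (ENSMUSG00000045179, chromosome X, 60891366 to 60893430) had 9.94, 17.6, 13, 13.8 and 16.7 normalized CPM in fed POMC and 17.8, 12.1, 7.14, 9.42 and 7.54 in FD POMC libraries. In AGRP neurons it had 2 counts over 5 fed and 5 counts over 6 FD libraries, where POMC neurons had 1571 and 956. The ratio of POMC to AGRP counts, scaled for library size, was 694 in fed mice (95% counting interval 192 to 5737) and 257 in FD mice (110 to 793), with q = 7.07e-08 and q = 3.03e-08. AGRP FD replicate 4 held 4 of the 5 counts, and without it the fitted log2 fold change in FD mice went from −7.93 to −9.16. *Sox1* (ENSMUSG00000096014, chromosome 8, 12395295 to 12400126) had 19.3, 17.9, 23.7, 11.9 and 21.9 normalized CPM in fed AGRP and 90.5, 83, 85.8, 68.2 and 57.8 in fed POMC libraries (log2 fold change −2.03, q = 0.00232). In FD mice it had 1.16 to 40.3 (median 12.8) in AGRP and 138, 124, 98.1, 96.9 and 98.1 in POMC libraries (log2 fold change −2.81, q = 9.18e-06). *Sox2* in POMC neurons was 18.1, 21.1, 25.3, 25.1 and 8.06 normalized CPM in fed and 24.8, 26.9, 22, 17.1 and 35.3 in FD mice, above every AGRP library. Its log2 fold change was −3.80 in fed (q = 0.00144) and −7.61 in FD mice (q = 1.88e-07), and the response of *Sox2* to deprivation differed between the types by −3.81 (q = 0.0287), a call lost with limma-voom (q = 0.233), with the spike-in set as a block (−2.95, q = 0.0903), without the 10 µl libraries (q = 0.2) and without AGRP fed replicate 2 (q = 0.0647) or 3 (q = 0.0632) or POMC FD replicate 5 (q = 0.0509). Without AGRP FD replicate 6 the FD difference was −8.32 and the interaction −4.52. The 4 astrocyte markers summed to 0.329 to 11.3 TPM in fed POMC and 0.606 to 10.4 TPM in FD POMC libraries, and *Sox9* and *Sox10* reached at most 2.69 and 0.982 TPM there. The part of astrocytes in the *Sox2* level of these libraries was not tested.

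The SOXD genes *Sox5* and *Sox6*, which lack an activation domain, were also higher in POMC neurons. *Sox6* (ENSMUSG00000051910) had 0.412, 0.11, 0.122, 0.19 and 0.161 normalized CPM in fed AGRP and 21.3, 36.6, 32.8, 6.1 and 40.2 in fed POMC libraries (log2 fold change −7.03, q = 5.31e-05). In FD mice it had 0 to 5.28 (median 0.142) in AGRP, where replicate 3 held the highest value, and 24.7, 29.8, 36.9, 9.52 and 11.8 in POMC libraries (log2 fold change −4.53, q = 0.000468, or −7.52 without AGRP FD replicate 3). *Sox5* had 17.5, 31.1, 49.8, 63.7 and 69.6 normalized CPM in fed POMC and 55.2, 83.8, 54.2, 31.7 and 51.4 in FD POMC libraries, with log2 fold changes of −2.19 (q = 0.00912) and −4.20 (q = 1.37e-06). The fed groups overlapped, since AGRP fed replicate 2 lay above POMC fed replicate 1. *Sox21*, a SOXB2 gene, was lower in AGRP neurons of FD mice (log2 fold change −4.22, q = 0.00217), with 0 to 3.1 normalized CPM (median 0.0828) against 14, 4.82, 10.1, 8.74 and 22.4. Without AGRP FD replicate 2, the highest of its group, the log2 fold change was −6.30 (q = 1.91e-05), and without the 10 µl libraries −3.39 (q = 0.0677). *Sox7*, known from endothelium, had 0 counts in all 11 AGRP libraries and 172 counts in FD POMC libraries, 153 of them in replicate 3, which was at least 77.0-fold higher against a floor of 3 counts over the group (q = 0.0238). That call was lost with limma-voom (q = 0.132), with the replicate number as a block (q = 0.0593) and with the spike-in set as a block (q = 0.13), and without replicate 3 the gene no longer passed the filter. In the other direction *Sox11* was higher in AGRP neurons, by a log2 fold change of 0.91 in fed (q = 0.0132) and 1.95 in FD mice (q = 2.65e-07). The fed call was lost without AGRP fed replicate 1 (0.72, q = 0.0682) and with the compared groups alone (q = 0.052).

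Among the ZFHX genes, *Zfhx3* and *Zfhx4* differed between the neuron types in opposite directions. *Zfhx3* (ENSMUSG00000038872, chromosome 8, 108714644 to 108961630), a factor of the hypothalamic clock and of neuronal differentiation, had 549, 526.5, 648, 613 and 677 normalized CPM in fed AGRP and 252, 265, 327, 355 and 246 in fed POMC libraries (log2 fold change 1.06, q = 1.55e-05). In FD mice it had 524 to 748 (median 646) against 315, 329, 236, 293 and 183 (log2 fold change 1.21, q = 5.31e-07). *Zfhx4* (ENSMUSG00000025255, chromosome 3, 5218526 to 5415857) had 63.2, 51.4, 67, 71.9 and 101 normalized CPM in fed AGRP and 154, 194, 208, 233 and 268 in fed POMC libraries (log2 fold change −1.58, q = 3.52e-05). In FD mice it had 21.8 to 86.9 (median 51.8) against 296, 270, 237, 289 and 212 (log2 fold change −2.33, q = 9.72e-09). Neither gene overlapped between the types in either feeding state. Scaled by spike-in RNA per cell, *Zfhx4* lost both calls (−0.85 in FD mice, q = 0.439, and −1.21 in fed mice). *Zfhx3* lost the fed call (1.28, q = 0.983) and kept that in FD mice. With *Zfhx2*, the 3 ZFHX genes differed between the types in FD mice.

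*Six3*, *Six6* and *Lhx2*, which act in the ventral hypothalamus and eye field, were lower in AGRP neurons of FD mice, and *Six3* also in fed mice. *Six3* (ENSMUSG00000038805, chromosome 17, 85613608 to 85629302) had 27.8, 57.6, 67.9, 35.3 and 27.4 normalized CPM in fed AGRP and 371, 237, 149, 172 and 122 in fed POMC libraries (log2 fold change −2.28, q = 6.65e-06). In FD mice it had 25.8 to 79.3 (median 33.7) against 140, 141, 127, 154 and 124 (log2 fold change −1.66, q = 0.000105). Scaled by spike-in RNA per cell, *Six3* lost both calls (−2.75 in fed mice, q = 0.0564, and −0.24 in FD mice, q = 0.84). Its antisense transcript *Six3os1* ran alongside, at 6.43 ± 2.85 TPM in fed AGRP (SD, n = 5), 3.41 ± 1.55 in FD AGRP (n = 6), 16.5 ± 3.87 in fed POMC (n = 5) and 16.4 ± 2.4 in FD POMC libraries (n = 5). In the M21 annotation 0.606% of the exon bases of *Six3* are shared with *Six3os1*. *Six6*, also a gene of the pituitary, had 11.5 to 45.4 normalized CPM (median 29.1) in FD AGRP and 90.1, 132, 93.4, 92.3 and 103 in FD POMC libraries (log2 fold change −1.78, q = 5.64e-05). That call was lost with scaling by spike-in RNA per cell (−1.04, q = 0.367). *Lhx2*, a LIM homeobox gene, had 0.287 to 18.5 (median 1.5) against 11.2, 22.3, 22.5, 21.6 and 25.1 normalized CPM in FD mice. The groups overlapped through AGRP FD replicate 4 (log2 fold change −2.22, q = 0.0341), and the next AGRP FD library was at 3.86. Without that replicate the log2 fold change was −3.74 (q = 0.000222), and without the 10 µl libraries −3.61 (q = 0.00339). The call was lost with the compared groups alone (q = 0.0504), without any 1 of the other 5 AGRP FD libraries (q = 0.055 to 0.0704) and without POMC FD replicate 2, 3, 4 or 5 (q = 0.0532 to 0.0605). *Six4* in fed mice (log2 fold change −6.70, q = 0.0209) rested on POMC fed replicate 1, which held 299 of 372 counts, and without it the log2 fold change was −4.29 (q = 0.17). The call was also lost with limma-voom (−3.24, q = 0.272), with the replicate number as a block (q = 0.151), without AGRP fed replicate 3 (q = 0.0566) or 4 (q = 0.0576) and without the 10 µl libraries (q = 0.132).

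The ONECUT genes, cut homeobox factors of several neuron classes, were low and had most of their counts in POMC libraries. *Onecut3* had 0 counts in the 5 fed AGRP libraries and 446 in the fed POMC libraries, 370 of them in replicate 3, which was at least 131-fold higher against a floor of 3 counts over the group (q = 0.00175). The fitted log2 fold change went from −9.17 to −7.25 without that replicate (q = 0.0127). In FD mice it had 2 and 110 counts, a ratio of 73.9 (95% counting interval 19.97 to 617.5; q = 0.00713). *Onecut1* had 9 counts in fed AGRP and 307 in fed POMC libraries (ratio 30.1, interval 15.7 to 66.6; log2 fold change −4.89, q = 0.027). That call was lost without POMC fed replicate 1 (−4.07, q = 0.0936), without AGRP fed replicate 1, 3, 4 or 5 (q = 0.067 to 0.0695) and with the replicate number as a block (q = 0.0678), and without AGRP fed replicate 2 the log2 fold change was −6.57. The FD value was −5.69 (q = 0.00248), or −6.78 without AGRP FD replicate 4. *Onecut2* had 3.2, 0.605, 0.73, 0 and 0.268 normalized CPM in fed AGRP and 14.6, 6.77, 23.7, 34.5 and 41.9 in fed POMC libraries (log2 fold change −4.64, q = 0.00117, or −5.92 without AGRP fed replicate 1). In FD mice *Onecut2* ranged from 0 to 11.5 (median 4.32) in AGRP and was 12.3, 30.3, 9.93, 21.3 and 9.28 in POMC libraries, with a log2 fold change of −1.79 (q = 0.115). These are low levels, and *Onecut2* has the highest mean of the family at 2.76 TPM.

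*Foxp2* and *Foxq1* divided the neuron types among the forkhead genes. *Foxp2*, known from speech and motor circuits, had 0.183, 0.055, 0.304, 0.19 and 0 normalized CPM in fed AGRP and 7.9, 1.85, 8.48, 4.51 and 0.41 in fed POMC libraries (log2 fold change −4.93, q = 0.0121). In FD mice the log2 fold change was −3.38 (q = 0.0286), which became −2.67 without POMC FD replicate 2 (q = 0.114). It was also lost with the spike-in set as a block (−3.11, q = 0.0782), the replicate number as a block (q = 0.0593), the compared groups alone (q = 0.0541), without AGRP FD replicate 4 (q = 0.0509) and without the 10 µl libraries (q = 0.065), which also ended the fed call (q = 0.0859). *Foxq1* was at least 35.1-fold higher in fed AGRP than in fed POMC neurons against a floor of 3 counts over the group (q = 0.000581), and in FD mice the ratio was 181 (95% counting interval 70.4 to 665; q = 8.98e-05). *Foxk2* was higher in AGRP neurons of FD mice by a log2 fold change of 0.90 (q = 0.000692).

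POU genes also differed between the neuron types. *Pou2f2*, an octamer-binding factor, had 39.8 to 76.2 (median 64.1) in AGRP and 132, 84.1, 101, 117 and 115 normalized CPM in POMC libraries of FD mice (log2 fold change −0.83, q = 0.00138), and its sign turned with scaling by spike-in RNA per cell (0.25, q = 0.832). *Pou6f1* was higher in AGRP neurons of FD mice (log2 fold change 1.12, q = 0.0227), a call lost without AGRP FD replicate 3 (q = 0.0609), POMC FD replicate 3 (q = 0.07) or 5 (q = 0.0541) and the 10 µl libraries (q = 0.179). *Pou5f2*, named for its interaction (9.38, q = 0.0228), had 372 of its 488 fed POMC counts in replicate 3 and q = 0.0662 without that library (7.93). The value was 4.32 with limma-voom (q = 0.331), 6.62 with the replicate number as a block (q = 0.229), 8.27 with the spike-in set as a block (q = 0.0692) and 9.14 without the 10 µl libraries (q = 0.111). It was 8.13 without AGRP FD replicate 5 and 10.38 without AGRP fed replicate 1. No POU gene had q under 0.05 between fed and FD mice of 1 neuron type.

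**Figure D4:**
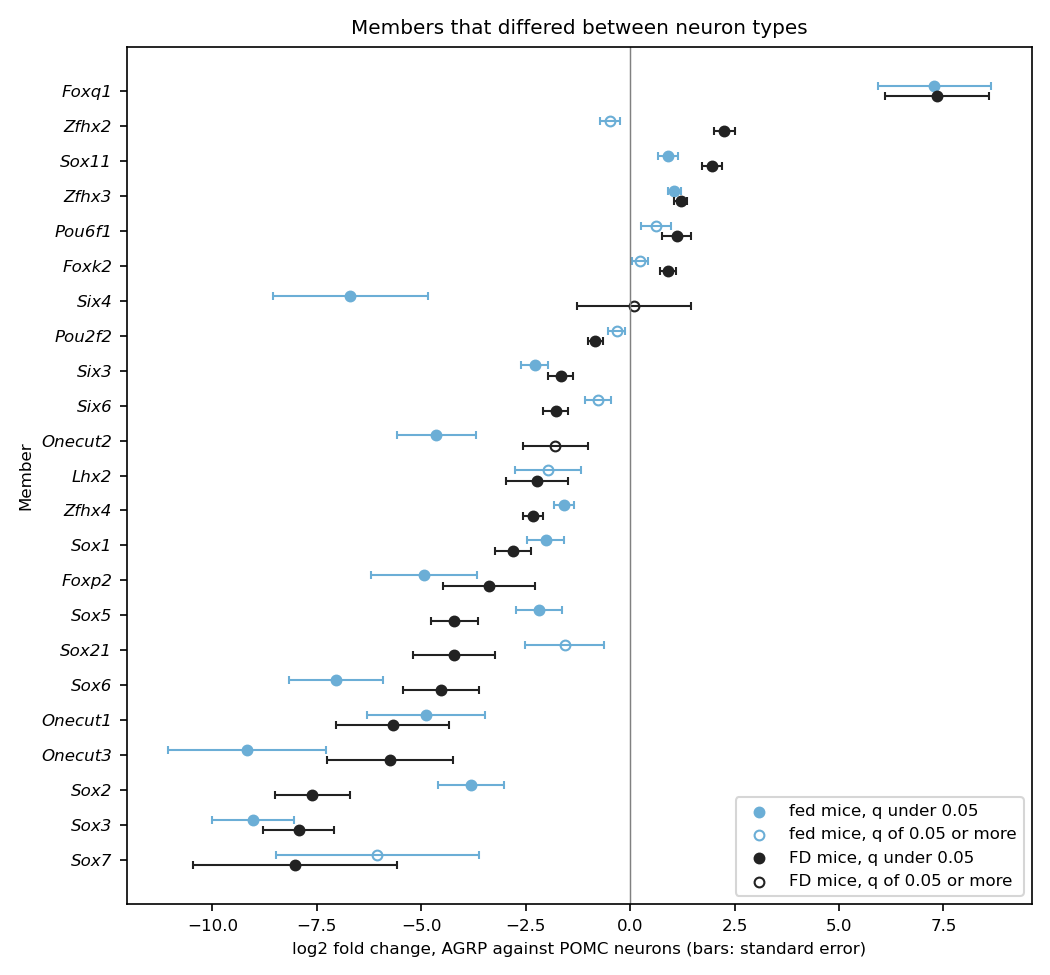
log2 fold change (horizontal axis, bars are standard errors) between AGRP and POMC neurons for 23 of the members with q under 0.05 in fed or in FD mice, with filled points at q under 0.05. Values below 0 are lower in AGRP neurons, and *Zfhx2* stands on different sides of 0 in fed and FD mice.

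**Figure D5:**
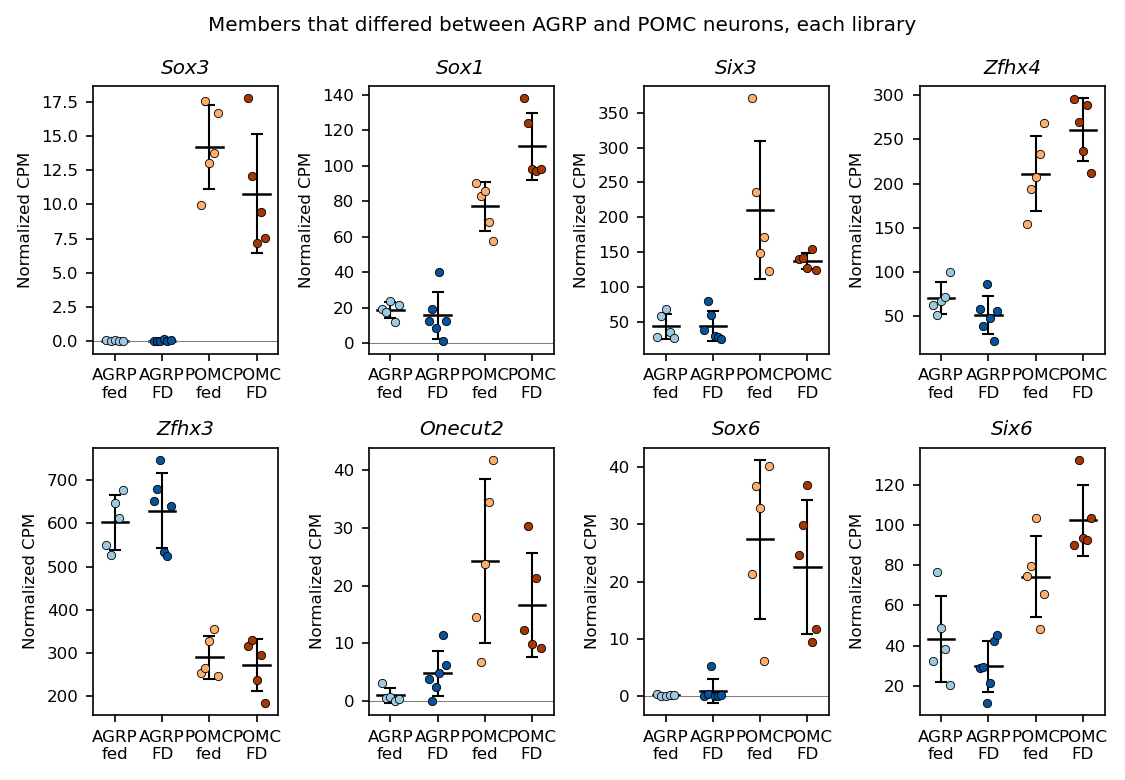
Normalized CPM (vertical axes, scaled per gene) of 8 members chosen to show the families, 1 point per library, with group mean (line) and SD (bar). *Sox3*, *Zfhx4*, *Six3* and *Sox1* have every POMC library above every AGRP library, and *Zfhx3* has every AGRP library above every POMC library.

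Known partners and cofactors of these families, together with homeobox genes outside the families, were counted in the same way. The list held 60 genes, of which 46 were tested. Between FD and fed AGRP neurons 7 had q under 0.05 (10.3% of all genes), 4 higher and 3 lower, and none did in POMC neurons. The LIM cofactor genes *Lmo3* (log2 fold change −2.60, q = 1.53e-06), *Ldb2* (−1.69, q = 5.54e-05) and *Ssbp2* (−1.12, q = 0.000782) were lower in FD AGRP neurons, and the corepressor gene *Tle3* was higher (2.39, q = 0.0154). Between the neuron types 10 genes of this list differed in fed mice (21.7% of those tested, beside 7.57% of all genes) and 17 in FD mice (37%, beside 18.6%). These shares cover the added homeobox genes as well as the partners, and do not describe the partners alone. The homeobox genes outside the families held the largest of these values, with *Otp* higher in AGRP (log2 fold change 8.89 in fed mice, q = 7.26e-11) and *Nkx2-1* lower (−8.50, q = 1.73e-11). *Bsx*, a homeobox gene known from AGRP neurons, was higher in AGRP neurons by 6.05 in fed (q = 3.61e-06) and 2.85 in FD mice (q = 0.00285). These genes were picked for naming after their values were seen.

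Of 20 members that are textbook factors of other cell types, 9 were tested. *Sox2* and *Foxq1* passed in the comparison of FD with fed AGRP neurons (2 of 9, beside 10.3% of all genes), and none did in POMC neurons (0.375%). Between the types *Sox2* and *Foxq1* differed in fed mice (2 of 9, beside 7.57%). In FD mice *Sox2*, *Foxq1*, *Six6* and *Sox7* did (4 of 9, beside 18.6%). *Six6* is in this list for the pituitary, although it also acts in the ventral hypothalamus. The ciliated cell factor *Foxj1* averaged 2.67 ± 2.3 TPM in fed AGRP (SD, n = 5), 0.302 ± 0.373 in FD AGRP (n = 6), 1.02 ± 0.95 in fed POMC (n = 5) and 0.28 ± 0.301 in FD POMC libraries (n = 5). Summed ependymal and tanycyte markers were 6.35, 4.37, 7.15 and 3.08 TPM in the same groups. Endothelial markers, the cells for which *Sox7* and *Foxq1* are known, summed to 0 to 2.94 TPM over all libraries, and the defining endothelial marker *Cldn5* was at 0 in 20 of 21 libraries. Mural markers were higher in FD AGRP than in FD POMC neurons, at 2.69 ± 0.838 against 0.459 ± 0.469 TPM (two-sided exact permutation test, adjusted p = 0.0173; n = 6 and n = 5). The part of these cells in the values of the members was not tested.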

How the data were processed

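Neurons were hand sorted from the arcuate nucleus and sequenced by the authors, who trimmed reads with cutadapt 1.7.1, removed abundant sequences with Bowtie2 2.1.0, aligned to mm10 with STAR 2.4.0i and made counts per gene without strand with HTSeq 0.6.1p1 (Gencode VM4 Basic). The deposited counts are raw, and the deposited TPM are the authors' values. The 92 spike-in and 5 summary rows were left out of library sizes and tests. Counts were fitted in R 4.3.3 with edgeR 4.0.16 (TMM, quasi-likelihood, 4 group means, genes above 1 CPM in at least 3 libraries), with limma 3.58.1 and DESeq2 1.42.0 as alternatives. In simulated data for FD against fed AGRP neurons (15991 genes), edgeR called 53 of 97 genes changed 4-fold, 24 of 100 changed 2-fold and 6 unchanged genes. Marker sums were compared with exact permutation tests. Intervals and floors cover counting error only. Positions are in mm10, counted from 1. Exon overlaps are from GENCODE M21 Basic, not the annotation of the counts, and 90 of the 114 members have the same start position in both. Members with q under 0.05 and an absolute log2 fold change over 1, the highest of each family, *Zfhx2* and members with an interaction were named. The members, lists and rules were chosen with earlier results of these data known. Replicates are separate mice. Replicate numbers mark different mice and their deviations did not go together, so they were no block in the model. The values of some members, though counted in the totals, are not reported here.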

Additional observations from a re-analysis of the deposited data

Results flagged for a closer look

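In 83 groups of libraries of named members, 13 held a highest or lowest library that stood apart by Dixon's test. Its chance rate of about 1 in 20 is for normally distributed values, which low counts need not follow. Some flagged libraries held few counts, such as 7 for *Onecut1* in AGRP fed replicate 2 and 6 for *Sox2* in AGRP FD replicate 6. No share over all genes was worked out, so the 13 libraries are listed without reading an excess from them. In AGRP fed neurons these were *Foxq1* in replicate 4 (0 normalized CPM, the next library 1.02), *Onecut1* in replicate 2 (0.385, next 0.0608), *Onecut2* in replicate 1 (3.2, next 0.73) and *Sox6* in replicate 1 (0.412, next 0.19). In AGRP FD neurons they were *Lhx2* in replicate 4 (18.5, next 3.86), *Sox2* in replicate 6 (0.447, next 0.152), *Sox21* in replicate 2 (3.1, next 0.576) and *Sox6* in replicate 3 (5.28, next 0.345). In POMC fed neurons they were *Onecut3* in replicate 3 (14.5, next 1.86) and *Six4* in replicate 1 (16.5, next 2.63). In POMC FD neurons they were *Foxp2* in replicate 2 (9.49, next 2.98), *Lhx2* in replicate 1 (11.2, the lowest, next 21.6) and *Sox7* in replicate 3 (6.47, next 1.77).

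The response to deprivation differed between AGRP and POMC neurons in the edgeR interaction test for *Zfhx2* (2.74 on the log2 scale), *Pou5f2* (9.38), *Sox2* (−3.81) and *Sox11* (1.05). *Zfhx2* kept q under 0.05 in all 29 other fits, spike-in scaling aside, and each of the other 3 lost it in at least 1 of them.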

How the results depend on the processing

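With scaling by spike-in RNA per cell the members with q under 0.05 numbered 0 for FD against fed AGRP neurons, 0 for POMC neurons, 8 and 10 for AGRP against POMC neurons in fed and FD mice and 2 for the interaction, where the calls over all genes fell to 97, 13, 297, 1117 and 119, and *Pou2f2* between the types in FD mice turned to 0.25. Under the criteria of the study (q under 0.05, log2 fold change over 1 and a group mean over 20 CPM) there were 5, 8, 12 and 3 for AGRP deprivation, the types in fed and FD mice and the interaction. Without the 10 µl libraries, chosen after seeing the data, there were 1 for AGRP deprivation, 0 for POMC deprivation and 1 for the interaction. POMC deprivation gave 0 with limma-voom, 3 with DESeq2 and 0 with the spike-in set as a block. Leaving out 1 library gave 5 to 11 (AGRP deprivation), 0 to 1 (POMC deprivation), 13 to 17 and 18 to 22 (the types in fed and FD mice) and 2 to 7 (interaction). The causes were not tested. At a mean over 20 TPM 24 members remained. Same-numbered libraries correlated at −0.18 to 0.12, so the pairing is a number only, and with a replicate block the interaction count was 2 and the others 8, 1, 14 and 20.

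Marker sums of single cell types ran against the sum of all 24 in FD less fed AGRP libraries (astrocyte 0.868, endothelial 0.203, mural 1.10 TPM), in FD less fed POMC libraries (astrocyte −0.675, oligodendrocyte precursor −0.73, endothelial −0.743, ependymal and tanycyte −4.06), in fed AGRP less POMC libraries (oligodendrocyte precursor −0.678, endothelial −0.826, ependymal and tanycyte −0.799) and in FD AGRP less POMC libraries (astrocyte 1.699, endothelial 0.12, mural 2.23, ependymal and tanycyte 1.29).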

Other observations

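Among the other genes counted in all 6 libraries of the 10 µl spike-in set and in none of the other 15 were *Dcn*, a matrix gene of fibroblasts (196 counts), *Rprml* (59 counts), *Pax2* (26 counts) and the HOX genes *Hoxc10* (25 counts), *Hoxb8* (23 counts), *Hoxb5* (22 counts) and *Hoxb9* (22 counts), which are known from the hindbrain and spinal cord.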
